A study of Mus musculus with 26 samples.

Results

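The 10 genes described here are known as neutrophil genes or draw neutrophils into tissue, and were followed through a colitis and colon cancer model: S100a8, S100a9 and Lcn2, which encode proteins abundant in neutrophils, Ly6g, whose protein is stained to find them, the receptors Csf3r and Cxcr2, the chemokines Cxcl1, Cxcl2 and Cxcl5, and the growth factor Csf3. The members were chosen by name, 10 of 35975 genes that the transcripts were summed to, and all 10 passed the filter on low counts. Wild type male C57BL/6J mice, about 10 weeks old at the start, ate a standard diet (STD) or a diet with GW3965, a synthetic agonist of the liver X receptor (LXR), a nuclear receptor for oxysterols. Treated mice received the carcinogen azoxymethane (AOM) and rounds of dextran sulfate sodium (DSS), a detergent that injures the colon lining, in their water, and colon was collected for bulk RNA-seq at day 22, 43 or 70, with 3 samples per diet and day and 18 in all. Per the study's methods the RNA came from pieces of distal colon, where the tumours of this model arise. The 8 untreated samples, 4 per diet, came from mice that had neither AOM nor DSS and are called day 0; these mice had eaten their diet for 22 or 43 days. The labels put all standard-diet samples of days 22 and 43 in 1 cage, all GW3965-diet samples of those days in another, and the day 0 samples of each diet in a cage of their own, so diet and cage cannot be told apart at days 0, 22 and 43, and neither can untreated state and cage. Each day 70 sample had a cage of its own, so day and cage cannot be told apart between day 70 and the other days. The study's sources differ on what a sample is: its account of the experiment counts mice per day, while its note on replication describes bulk libraries as pools of several animals, and the labels do not settle it.

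Neutrophils are short-lived phagocytes that leave the blood within hours of injury. In the mouse they follow CXC chemokines that carry a glutamate-leucine-arginine motif, above all CXCL1, CXCL2 and CXCL5, all of which bind the receptor CXCR2, while granulocyte colony-stimulating factor, encoded by Csf3 and read by its receptor Csf3r, drives their production in bone marrow. S100A8 and S100A9 pair as calprotectin, which is abundant in neutrophil cytoplasm and is also made by stressed squamous epithelium, and lipocalin 2 (Lcn2), an iron-scavenging protein, comes from both neutrophils and epithelium. Ly6G is the surface protein most used to identify mouse neutrophils by antibody.

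The promoters of Cxcl1, Cxcl2, S100a8 and Lcn2 are given below as a description. RefSeq promoter windows (GRCm38.p6) were matched for 8 of the 10 members, and not for Cxcl5 and Csf3. For each gene the 250 bases before the start site are given, 5′ to 3′ on the gene's strand, with capitals marking a match to GGGA, 2 bases of any kind and TTCC (NF-κB-like), to TTGNNCAA (C/EBP-like) or TATAAA, searched on both strands.
Cxcl1 (chr5:90890995-90891244, + strand): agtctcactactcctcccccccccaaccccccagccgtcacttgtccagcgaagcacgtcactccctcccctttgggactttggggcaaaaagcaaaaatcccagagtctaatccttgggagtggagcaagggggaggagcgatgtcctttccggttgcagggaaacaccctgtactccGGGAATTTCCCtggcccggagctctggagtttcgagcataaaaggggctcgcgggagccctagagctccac
Cxcl2 (chr5:90903649-90903898, + strand): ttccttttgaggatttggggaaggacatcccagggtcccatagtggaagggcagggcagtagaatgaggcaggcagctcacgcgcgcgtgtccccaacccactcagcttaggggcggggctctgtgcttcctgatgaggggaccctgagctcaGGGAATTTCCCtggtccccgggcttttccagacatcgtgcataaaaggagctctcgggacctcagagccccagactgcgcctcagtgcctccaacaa
S100a8 (chr3:90668821-90669070, + strand): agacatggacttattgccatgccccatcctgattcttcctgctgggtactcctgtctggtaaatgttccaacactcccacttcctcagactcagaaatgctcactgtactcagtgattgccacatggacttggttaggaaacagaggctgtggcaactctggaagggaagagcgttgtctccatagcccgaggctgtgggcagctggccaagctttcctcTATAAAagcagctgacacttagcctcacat
Lcn2 (chr2:32387740-32387989, - strand): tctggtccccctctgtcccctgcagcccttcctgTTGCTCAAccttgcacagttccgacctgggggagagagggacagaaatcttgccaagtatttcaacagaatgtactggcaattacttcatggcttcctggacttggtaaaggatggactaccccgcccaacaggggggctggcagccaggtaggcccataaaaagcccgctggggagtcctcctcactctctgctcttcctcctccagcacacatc
Cxcl1 held the NF-κB-like letters 71 bases before its start site and Cxcl2 held them 97 bases before its own, and in both the match on the other strand overlaps it by all but 1 base. Csf3r had a match 129 bases before its start, so 3 of the 8 matched members had one, against 1.47% of 32851 promoter windows. The windows searched, for members and background, ran from 250 bases before the start site to 50 bases after it. The C/EBP-like letters lay 216 bases before the start of Lcn2 and also in a window of Ly6g (6.4% of all windows). TATAAA lay 30 bases before the start of S100a8 and also in the windows of S100a9 and Ly6g (13.6% of all windows). The letters TGANTCA (AP-1-like, 7.81% of windows) and TTCNNNGAA (STAT-like, 8.3%) were in none of the members' windows. These are matches of letters in a window and not measured sites.

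Library totals ran from 18195345 to 41522204 estimated counts with a median of 20424702, and no libraries held identical values. Standard diet day 43 replicate 1 had both the largest total and the lowest RNA integrity number (RIN), 2.6, against 6.8 to 10 in the other libraries. Counts of ribosomal protein genes made up 5.33% to 6.51% of the total at day 0 and 10.0% to 18.6% at day 43. Transcripts of stratified squamous epithelium, a lining of the anal canal that colon lacks, were near the day 0 level at day 22 (12 markers summed to 5.32 to 25.1 CPM, counts per 1000000 of the library's scaled total, against 4.02 to 7.62 CPM at day 0) and far above it at day 43 (174 to 4260) and day 70 (3330 to 20600), except in GW3965 diet day 70 replicate 2 (7.04). The agonist diet acted as labelled on Abcg1, an LXR-induced cholesterol exporter: it was higher on the GW3965 diet at every day, by 2.16 to 2.90 on the log2 scale (edgeR quasi-likelihood test, FDR 1.38e-06 to 0.00097). All 8 markers of colon epithelium had counts in every library. A day 0 library with conflicting diet labels was placed by its title.

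S100a8 was close to the limit of counting in untreated colon. On the standard diet its 4 day 0 samples held 0.518, 0.236, 0.766 and 1.73 CPM, scaled by edgeR's TMM library sizes, and on the GW3965 diet 0.0983, 0.649, 0.574 and 0.249 CPM. At day 22 the values were 9.24, 139 and 187 CPM on the standard diet and 140, 35.8 and 176 CPM on the GW3965 diet. All 6 day 22 samples lay above all 8 day 0 samples, with standard diet replicate 1 the lowest by far. At day 43 S100a8 reached 1472, 6312 and 1251 CPM on the standard diet and 1250, 783 and 308.0 CPM on the GW3965 diet. At day 70 it stood at 58.1, 247 and 103 CPM on the standard diet and 499.6, 56.8 and 393 CPM on the GW3965 diet. On each diet the day 43 samples were all above those of day 22, and on the standard diet all above those of day 70, whereas on the GW3965 diet days 43 and 70 overlapped. The log2 fold change of S100a8 against day 0 was 7.10 ± 1.06 (SE), 11.85 ± 1.25 and 7.38 ± 1.07 at days 22, 43 and 70 on the standard diet, and 8.17 ± 1.13, 10.91 ± 1.23 and 9.61 ± 1.18 on the GW3965 diet (edgeR, FDR 1e-06 to 5e-04). In TPM, a unit that divides counts by transcript length before scaling, S100a8 was at a median of 3.16 on the standard diet at day 0 and 3750 at day 43, when it was the member of the highest median on that scale.

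S100a9, the partner of S100a8, moved with it. It was at 0.0497 to 2.38 CPM over the 8 untreated samples and at 759, 5280 and 1505 CPM on the standard diet at day 43. The same library was the lowest of its group for both genes in every treated group except the standard diet at day 43, where it was replicate 3 for S100a8 and replicate 1 for S100a9. The log2 fold change of S100a9 was 6.76 to 10.98 on the standard diet and 7.83 to 10.95 on the GW3965 diet over the 3 days (edgeR, FDR 1.58e-06 to 0.000685). Across the 18 AOM–DSS samples the log2 CPM of the pair correlated with r = 0.98, a description over samples that share days and cages.

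**Figure D1:**
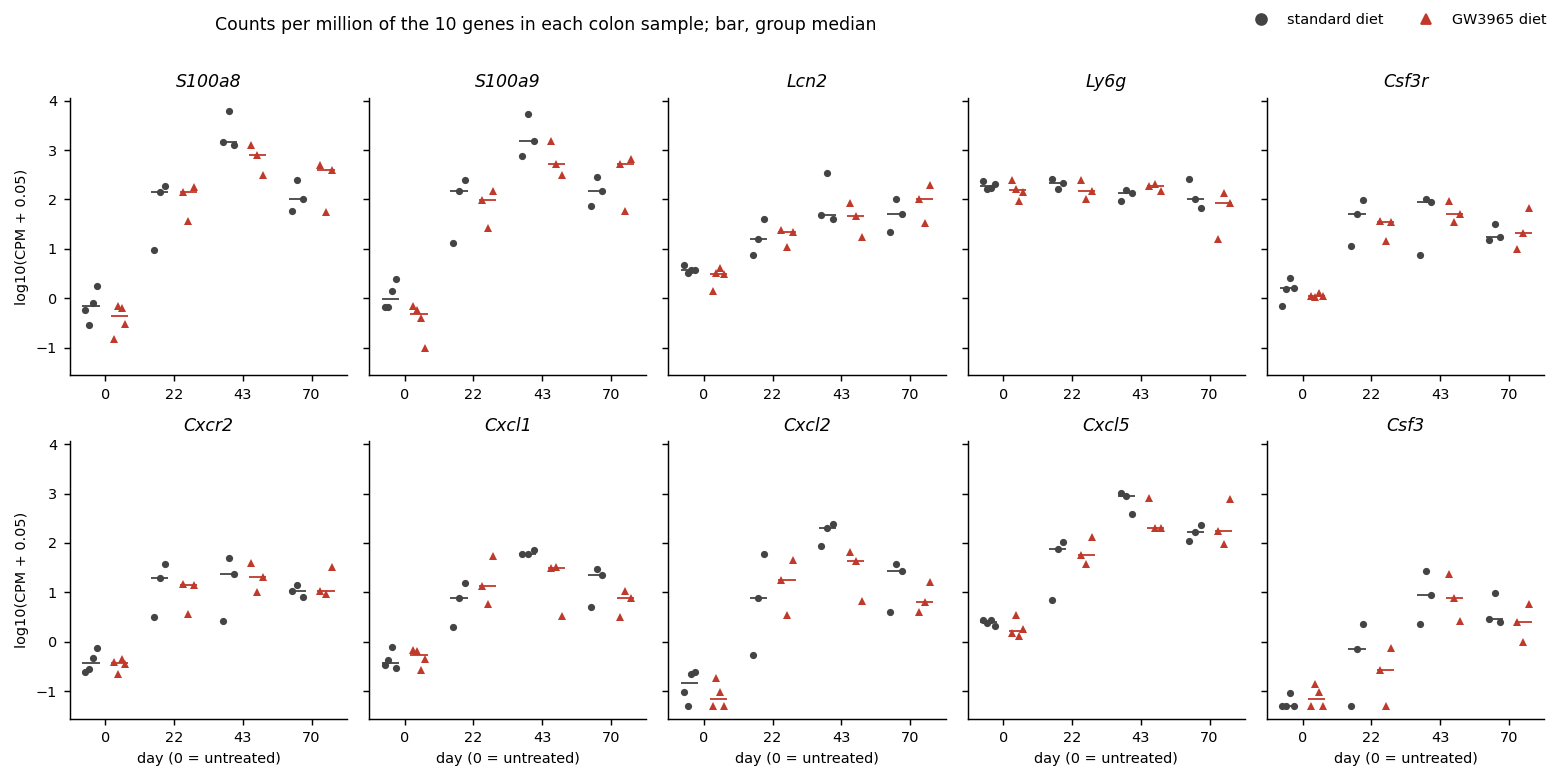
CPM of each gene, as log10(CPM + 0.05), in the 26 colon samples by day; circles are the standard diet, triangles the GW3965 diet and bars the group medians. S100a8 climbs from at most 1.73 CPM at day 0 to between 308.0 and 6312 CPM at day 43, whereas Ly6g is as high at day 0 as later.

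Lcn2 was measurable in untreated colon and had the smallest fold change at day 22 of the members called. Its day 0 values were 3.16 to 4.76 CPM on the standard diet and 1.38 to 4.02 CPM on the GW3965 diet. At day 22 it read 7.52, 15.8 and 40.0 CPM on the standard diet and 23.7, 11.03 and 22.3 CPM on the GW3965 diet. At day 43 it read 49.2, 339 and 39.6 CPM on the standard diet and 86.2, 46.5 and 17.4 CPM on the GW3965 diet. At day 70 it read 21.8, 103 and 49.9 CPM and 102, 32.9 and 194 CPM on the 2 diets in the same order. Each treated group lay above every untreated sample, while the groups of successive days overlapped on both diets. The rise over day 0 was 5.5-fold at day 22, 37.1-fold at day 43 and 15.2-fold at day 70 on the standard diet (edgeR, FDR 0.0387, 2.41e-05 and 0.00091), and 6.56-, 17.3- and 37.8-fold on the GW3965 diet (FDR 0.0145, 0.000321 and 0.000173). The day 22 call on the standard diet was lost in 6 of 7 fits that left out 1 library (FDR 0.0808 to 0.296), all but the one without day 22 replicate 1, and the day 22 call on the GW3965 diet was lost without its replicate 3 (FDR 0.053).

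Csf3r and Cxcr2, the receptors that neutrophils carry for granulocyte colony-stimulating factor and for the chemokines, were called higher at each of the 3 days on both diets. Csf3r was at 0.659, 1.51, 2.51 and 1.53 CPM on the standard diet at day 0 and at 1.08, 0.996, 1.24 and 1.04 CPM on the GW3965 diet. It reached 11.4, 51.0 and 95.5 CPM at day 22 and 7.27, 103 and 90.3 CPM at day 43 on the standard diet. On the GW3965 diet it reached 37.3, 14.5 and 34.7 CPM at day 22 and 94.8, 34.3 and 50.6 CPM at day 43. The day 22 and day 43 samples overlapped on both diets, and the low value at day 43 was that of the library with a RIN of 2.6. At day 70 Csf3r was at 15.1, 31.9 and 16.9 CPM on the standard diet and 10.0, 21.3 and 67.5 CPM on the GW3965 diet. Against day 0 its log2 fold change lay between 3.77 and 5.42 on the standard diet and between 4.72 and 5.77 on the GW3965 diet, each with an SE of 0.78 to 0.84 (edgeR, FDR 1.87e-05 to 0.00132), and on the GW3965 diet the rise was 26.3-fold at day 22 and 54.7-fold at day 43.

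Cxcr2 had a lower level per length than Csf3r, at a median of 0.137 against 0.836 TPM on the standard diet at day 0, and followed it. It held 4 to 14 counts per library at day 0, or 0.173 to 0.693 CPM. It stood at 3.17, 19.3 and 37.1 CPM at day 22 and at 2.55, 48.4 and 23.4 CPM at day 43 on the standard diet. On the GW3965 diet the values were 14.7, 3.66 and 14 CPM at day 22 and 38.7, 10.3 and 20.2 CPM at day 43. Standard diet day 43 replicate 1 was again the lowest of its group. The rise over day 0 was 50.9-, 63.4- and 27.7-fold on the standard diet and 35-, 74.9- and 56.9-fold on the GW3965 diet at days 22, 43 and 70 (edgeR, FDR 1.96e-05 to 0.000685).

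Ly6g did not follow the other members. Per length it was the highest of them at day 0, at a median of 387 TPM on the standard diet. In CPM it was at 161.7 to 230.8 CPM on the standard diet and 93.7 to 243 CPM on the GW3965 diet. At day 22 it read 263, 163 and 214 CPM on the standard diet and 244, 101 and 150.2 CPM on the GW3965 diet, within or beside the untreated range. At day 43 it read 91.5, 152 and 132 CPM on the standard diet, all below the untreated samples of that diet, and 185, 206 and 145 CPM on the GW3965 diet. At day 70 it read 256, 104 and 65.9 CPM on the standard diet and 15.5, 133 and 83.7 CPM on the GW3965 diet. The lowest value of all was in GW3965 diet day 70 replicate 1, the library in which skeletal muscle markers summed to 16400 CPM. No comparison with day 0 passed the test, with log2 fold changes from -1.05 to 0.15 (edgeR, FDR 0.145 to 0.966), although without GW3965 diet day 70 replicate 2 the day 70 value on that diet was called lower (-1.71, FDR 0.0344). Nearly all Ly6g counts sat on 1 of its 2 transcripts: the 941-base ENSMUST00000190262.1 held 3303.9 to 4756.7 estimated counts per standard diet day 0 library, while the 336-base ENSMUST00000023246.3 held 68.0 to 149.3. Of the 31-base words of these transcripts 9.5% and 11.4% also occur in other genes, Ly6i, Ly6c1 and Ly6c2 among them, so reads of Ly6g could be split among them. Such sharing is not particular to Ly6g. It was 27.0% and 24.5% for the 3160- and 3481-base Csf3r transcripts and 12.2% for the 3046-base Cxcr2 transcript. Over the 18 AOM–DSS samples the correlation of Ly6g with the other members ran from -0.4 to 0.36. The genes of the most similar pattern over all samples were Sri, Ralb, Tspan8 and Serpinb1a (r of 0.852 to 0.893 over the 18 AOM–DSS samples), which were looked up after the values were seen. Whether the 941-base transcript reports the Ly6g of neutrophils is not settled by these data.

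The chemokines began at or near 0. Cxcl2 held 0 to 4 counts per library at day 0, 9 in all on the standard diet and 4 on the GW3965 diet. At day 22 it read 0.484, 7.75 and 59.0 CPM on the standard diet and 17.5, 3.42 and 45.9 CPM on the GW3965 diet. At day 43 it read 86.8, 199.7 and 244 CPM on the standard diet and 66.5, 42.4 and 6.61 CPM on the GW3965 diet. All treated samples lay above all untreated ones, and at day 43 the 3 standard diet samples lay above the 3 GW3965 diet samples. At day 70 the values fell in the range 3.99 to 37.4 CPM over both diets. The log2 fold change of Cxcl2 was 7.67 ± 1.43, 10.65 ± 1.503 and 7.68 ± 1.43 on the standard diet and 8.74 ± 1.57, 9.53 ± 1.57 and 7.40 ± 1.58 on the GW3965 diet (edgeR, FDR 8.88e-06 to 0.00221), from few counts at day 0.

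Cxcl1 had the narrowest spread of any member at day 43 on the standard diet, with 60.2, 59.1 and 72.6 CPM. The GW3965 diet samples of that day held 30.8, 31.9 and 3.28 CPM, none reaching the standard diet values. At day 22 the order was less clear, with 1.93, 7.49 and 15.2 CPM on the standard diet and 13.2, 5.71 and 54.2 CPM on the GW3965 diet. Untreated colon held 0.221 to 0.723 CPM. Cxcl1 rose 19.6-, 153- and 45.5-fold on the standard diet and 51.8-, 46.7- and 15.2-fold on the GW3965 diet at days 22, 43 and 70 (edgeR, FDR 4.49e-06 to 0.00397).

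Cxcl5, which in mouse tissue comes mainly from epithelium, was the chemokine of the highest median level per length on the standard diet at day 0 (2.05 TPM) and day 43 (407 TPM). In CPM it was at 2.03 to 2.73 CPM on the standard diet and 1.24 to 3.38 CPM on the GW3965 diet at day 0. At day 43 it reached 1023, 896 and 391.7 CPM on the standard diet and 813, 205 and 202 CPM on the GW3965 diet. At day 70 it was still at 107, 168 and 235 CPM on the standard diet and 177, 96.2 and 785 CPM on the GW3965 diet. The last value, in replicate 3, stood apart from its group. Its log2 fold change was 4.67 to 8.30 on the standard diet and 5.29 to 7.70 on the GW3965 diet, with SE of 0.80 to 0.93 (edgeR, FDR 1.47e-06 to 0.00111).

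Csf3 had the fewest counts at day 0. Its 4 standard diet day 0 libraries held 1 count between them and the 4 GW3965 diet libraries held 3. At day 22 the standard diet libraries held 0, 13 and 44 counts and the GW3965 diet libraries 4, 0 and 15, so both groups overlapped the untreated samples. At day 43 they held 72, 514 and 162 counts and 395, 114 and 53 counts. The ratio of Csf3 CPM to day 0 was 926 at day 43 on the standard diet (95% interval 166 to 36600) and 309 on the GW3965 diet (105 to 1500), with exact Poisson intervals that cover counting error only. At day 70 the ratios were 438 (78.1 to 17400) and 90.5 (30.6 to 442). At day 22 they were 85.2 (14.7 to 3420) on the standard diet, where edgeR called Csf3 higher (FDR 0.0239), and 8.91 (2.62 to 47) on the GW3965 diet, where it did not (FDR 0.177). The day 22 call was lost in 6 of 7 fits that left out 1 library (FDR 0.0502 to 0.205), all but the one without day 22 replicate 1.

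**Figure D2:**
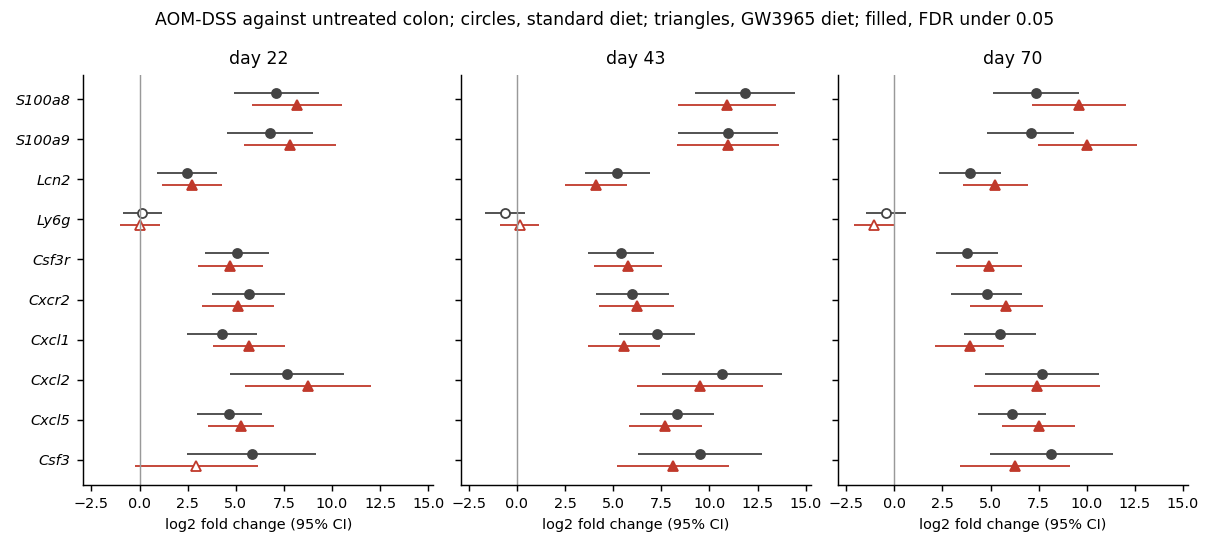
Log2 fold change against day 0 with its 95% confidence interval for each gene at days 22, 43 and 70, circles for the standard diet and triangles for the GW3965 diet, filled where FDR is under 0.05. The estimates of the 9 genes other than Ly6g lie to the right of 0 at every day, with S100a8 at 11.85 on the standard diet at day 43. The intervals of Ly6g cross 0 or reach it, and that of Csf3 on the GW3965 diet at day 22 crosses it (-0.26 to 6.13).

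Counted together, 9 of the 10 members were called higher at each of days 22, 43 and 70 on the standard diet, where 7.56%, 30.8% and 16.7% of 17063 genes tested were called higher. On the GW3965 diet 8, 9 and 9 were called higher, against 13.7%, 26% and 14.7% of all genes. The median log2 fold change of the members was 5.37, 7.78 and 5.81 on the standard diet and 5.21, 6.96 and 6.04 on the GW3965 diet, while that of all genes tested lay between 0.006 and 0.137. In 16 of the 18 AOM–DSS libraries all 9 members other than Ly6g were above every untreated sample, and the other two, standard diet day 22 replicate 1 and GW3965 diet day 22 replicate 2, had 8 of 9, with Csf3 at 0 counts in both. With the ribosomal percentage as a term in the model the day 43 calls went from 9 to 0 on the standard diet and from 9 to 5 on the GW3965 diet, and calls over all genes on the standard diet went from 9394 to 0, and that percentage separates day 43 from day 0 without overlap; day and ribosomal percentage cannot be told apart there. The log2 fold changes themselves moved less in that fit: the median of the members was 6.57 in place of 7.78 on the standard diet and 6.56 in place of 6.96 on the GW3965 diet, and on the standard diet S100a8 was at 11.15 and Lcn2 at 5.18, while Cxcl1 went from 7.26 to 3.19. The libraries of a group differed widely: standard diet day 22 replicate 1 and GW3965 diet day 22 replicate 2 were each the lowest of their group for all 9 of these members, and the highest sample of the standard diet at day 22 exceeded the lowest by 5.32- to 122-fold for the 8 members with counts in all 3 libraries, while Csf3 ran from 0 to 44 counts. In bulk tissue, fewer cells of a type and less RNA per cell cannot be told apart.

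Levels at successive days were set side by side without a test. The day 70 samples came from other cages than those of days 22 and 43. On the standard diet S100a8, S100a9, Cxcl1, Cxcl2 and Cxcl5 were higher in every day 43 sample than in any day 22 sample (5 of 10 members, against 19.7% of all genes), and the same 5 were lower in every day 70 sample than in any day 43 sample (25% of all genes). Ly6g was lower in every standard diet day 43 sample than in any day 22 sample (1 of 10, against 20.7% of all genes). On the GW3965 diet S100a8, S100a9, Cxcl5 and Csf3 were above day 22 in every day 43 sample (4 of 10, against 12.1% of all genes), and only Ly6g was lower in every day 70 sample than in any day 43 sample (1 of 10, against 21.9% of all genes). Csf3r and Cxcr2 overlapped between days 22, 43 and 70 on both diets.

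S100a8 changed relative to the receptors within the same libraries. The ratio of S100a8 TPM to Csf3r TPM was 1.5 to 10.2 on the standard diet and 0.929 to 5.92 on the GW3965 diet at day 0. It was 7.11, 26.8 and 18.9 on the standard diet and 37.2, 20.5 and 54.2 on the GW3965 diet at day 22. At day 43 it was 2350, 674 and 156 on the standard diet and 139, 245 and 59.4 on the GW3965 diet. All day 43 ratios lay above all day 22 ratios, with the library of RIN 2.6 the highest. The ratio was chosen after the values were seen and was not tested. Its divisor has a limit of its own: the 3160-base Csf3r transcript shares 27.0% of its 31-base words with other genes.

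**Figure D3:**
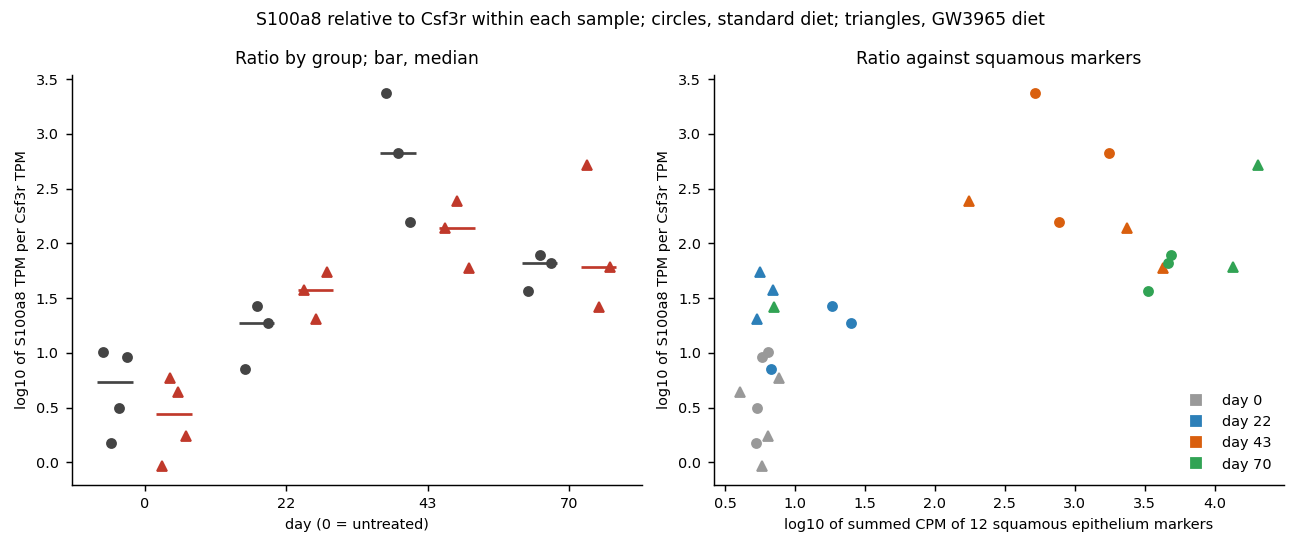
Left, the log10 ratio of S100a8 TPM to Csf3r TPM in each sample by day, with bars at group medians; right, the same ratio against the log10 summed CPM of 12 squamous epithelium markers, coloured by day. Circles are the standard diet and triangles the GW3965 diet; the day 43 ratios, 59.4 to 2350, lie above the day 22 ratios of 7.11 to 54.2, and the day 43 samples also lie to the right.

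RNA quality, the ribosomal percentage and squamous transcripts also differed between days 22 and 43, the first 2 with overlapping ranges. The ribosomal percentage was 6.06% to 10.7% at day 22 and 10.0% to 18.6% at day 43. RIN was 9.1 to 10 at day 22 and 2.6 to 9.3 at day 43, and the longest S100a8 transcript is 498 bases long where the longest of Csf3r has 3481. All 12 squamous markers were detected in at least 1 library of day 43. Their sum was lowest at day 43 in GW3965 diet replicate 2 (174 CPM), whose ratio was 245. It was highest at that day in GW3965 diet replicate 3 (4260 CPM), whose ratio, 59.4, was the lowest of the day. The highest ratio, 2350, was in standard diet replicate 1, with a sum of 517 CPM. At day 70 the ratio was 518 in GW3965 diet replicate 1, with a squamous sum of 20600 CPM and 3.96% ribosomal counts. It was 60.8 in replicate 3, with 13600 CPM, and 26.1 in replicate 2, with 7.04 CPM. On the standard diet at day 70 the ratio was 36.8 to 77.8, with sums of 3330 to 4900 CPM. The part of each in the ratio was not tested. In GW3965 diet day 70 replicate 2, with that sum of 7.04 CPM, all 9 members other than Ly6g were above every untreated sample. S100a8 was at 56.8 CPM and Cxcl5 at 96.2 CPM there. At day 22 the squamous sum was 6.72, 18.5 and 25.1 CPM on the standard diet, against at most 7.62 CPM at day 0. S100a8 had the same order in those libraries, at 9.24, 139 and 187 CPM. On the GW3965 diet the sum was 7, 5.32 and 5.62 CPM, with S100a8 at 140, 35.8 and 176 CPM. The part of squamous cells in the members' levels was not tested.

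The diets were then compared at each day, with the ribosomal percentage (the share of each library that fell on 88 ribosomal protein genes) as an additive term, whereas the study's own model lets a ribosomal RNA percentage interact with diet and time. No member was called at day 0, 22, 43 or 70 (edgeR and DESeq2, 0 of 10 each). Of all genes, edgeR called 0.0293%, 0.135%, 0.0293% and 1.83% at these days, and DESeq2 called 30, 298, 67 and 1170 genes. No member had an unadjusted p under 0.05 in this edgeR fit. At day 43 S100a8, Cxcl1 and Cxcl2 were lower in every GW3965 diet sample than in any standard diet sample (3 of 10 members, against 4.2% of all genes), and 8 of the 10 members had a negative difference. For S100a8 the difference was -1.85 on the log2 scale, with a 95% confidence interval from -3.88 to 0.17 (FDR 0.598). Cxcl2 differed by -1.42 (-3.75 to 0.91), Lcn2 by -1.51 (-3.2 to 0.19) and Cxcl1 by -0.75 (-2.28 to 0.78), and the other members had intervals that also held 0. Without standard diet day 43 replicate 2 the fitted differences were 0.01 for S100a8, 0.01 for Cxcl1 and 0.83 for Lcn2, although that library held the lowest Cxcl1 level of its group and the Cxcl1 samples of the 2 diets did not overlap with or without it. The median difference over the members at day 43 was -0.61, -1.22 without the ribosomal term and 0.54 without that library. It was -1.57 without GW3965 diet day 43 replicate 1, and -1.26 with only the groups compared and no ribosomal term. In edgeR, 4 members had an unadjusted p under 0.05 without that GW3965 diet library. The number was 2 with only the groups compared and no ribosomal term, and 1 with all groups and no ribosomal term. None was called in these fits.

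At the other days the diets overlapped for every member. At day 0 S100a9 differed most by p, at -1.66 (-3.99 to 0.68), from 1 to 48 counts per library. At day 22 Csf3 differed by -1.88 (-4.59 to 0.82) and Cxcl1 by 0.82 (-0.63 to 2.28). At day 70 Ly6g differed by -0.92 (-2.06 to 0.21) and Cxcl5 by 1.23 (-0.43 to 2.88), the latter -0.10 without GW3965 diet replicate 3. The median difference over the members was -0.38 at day 0, -0.48 at day 22, where it was 0.40 without standard diet replicate 3, and 0.67 at day 70, where it was -0.36 without GW3965 diet replicate 3. No member's diet effect at a later day differed from that at day 0 (0 of 30 tests at FDR under 0.05 and 0 at an unadjusted p under 0.05, edgeR interaction contrasts; 0.0234% of genes called at day 22 and 0% at days 43 and 70).

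**Figure D4:**
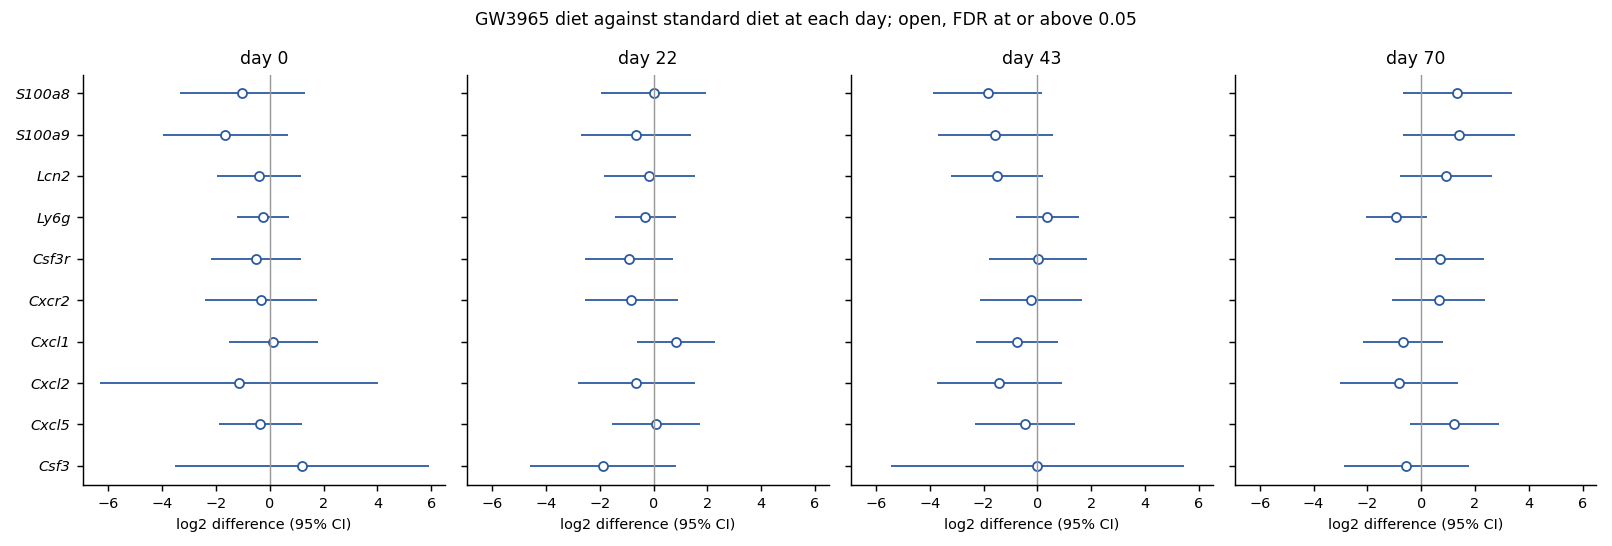
Log2 difference between the GW3965 and standard diets with its 95% confidence interval for each gene at days 0, 22, 43 and 70. All symbols are open, for FDR at or above 0.05, and all intervals hold 0, S100a8 at day 43 with -3.88 to 0.17 among them.

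Other genes of the pathway moved with the members. Of 28 further neutrophil granule and surface genes, 26 could be tested, and 21, 25 and 21 were called higher at days 22, 43 and 70 on the standard diet and 19, 26 and 21 on the GW3965 diet, with none lower. Over all genes, 7.56%, 30.8% and 16.7% were called higher on the standard diet and 13.7%, 26% and 14.7% on the GW3965 diet. Il1r2, a decoy receptor for interleukin-1, reached 18.7 to 116 CPM at day 43 on the standard diet from 0.33 to 0.638 CPM at day 0. Clec4e, a receptor for mycobacterial and damage glycolipids, reached 46.2 to 195 CPM from 0.188 to 0.596 CPM. Ltf, which encodes lactoferrin of the specific granules and of glandular secretions, was at 238 to 935 CPM at day 70 on the standard diet and at 25.2 to 4280 CPM on the GW3965 diet, the lowest in the library whose squamous sum was at the untreated level. Mpo and Elane, made by neutrophil precursors in marrow and not by mature cells, stayed at or below 2.47 CPM and 0.881 CPM in every group, and Elane did not pass the filter. Mpo was called higher at day 43 on both diets (FDR 0.00212 and 0.00472). Mpo and Elane were named whatever their values. The markers listed for immature neutrophils or marrow also held Ltf, Prtn3, Ctsg, Camp and Ngp. Apart from Ltf, the levels of these are not given here, so Mpo and Elane do not stand for that list.

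Of the other chemokines with the same motif, Cxcl3 was called higher in all 6 comparisons with day 0, from at most 0.149 CPM to 45.6 to 193 CPM at day 43 on the standard diet. Its sequence is close to that of Cxcl2, with which it shares 7.4% of the 31-base words of the 1109-base Cxcl2 transcript. Ppbp, which platelets store, was at 0.16 to 0.509 CPM at day 22 and at 28.8 to 566 CPM at day 43, and was not called at day 22 on the standard diet (FDR 0.939). Cxcl15 did not pass the filter.

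Of 10 genes of the interleukin-23 and interleukin-17 axis and its inducing cytokines, 6, 10 and 7 were called higher on the standard diet and 8, 9 and 7 on the GW3965 diet at days 22, 43 and 70. Over all genes the shares were 7.56%, 30.8% and 16.7% on the standard diet and 13.7%, 26% and 14.7% on the GW3965 diet. Il17a, which makes epithelium release these chemokines, was at 0 to 0.0426 CPM at day 0 and at 4.63 to 8.25 CPM at day 43 on the standard diet, and at 1.03 to 14.4 CPM at day 43 on the GW3965 diet. Il23a, which sustains the cells that make interleukin-17, was at 2.36 to 12.2 CPM at day 43 on the standard diet and at 0.294 to 0.881 CPM on the GW3965 diet, groups that did not overlap, and the difference was not called (-2.27 on the log2 scale, FDR 0.575). Il1b reached 105 to 770 CPM on the standard diet at day 43 from 0.848 to 3.86 CPM. Mertk, a receptor with which macrophages clear dead neutrophils and an LXR target, was called lower at day 70 on the standard diet (-1.66, FDR 0.00101) and at day 43 on the GW3965 diet (-0.98, FDR 0.0168). It was at 20.1 to 25 CPM on the GW3965 diet and 12 to 25.6 CPM on the standard diet at day 0, and none of 3 clearance genes was called between the diets at any day.

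Markers of other cells also moved. Of 10 monocyte and macrophage markers, 5 and 9 were called higher at days 22 and 43 on the standard diet (7.56% and 30.8% of all genes) and 8 and 9 on the GW3965 diet (13.7% and 26%). Their sum went from 413 to 756 CPM at day 0 to 2090 to 5900 CPM at day 43. At day 70 on the standard diet 1 was called higher (16.7% of all genes) and 2 lower, with a median log2 fold change of -0.38 and a sum of 334 to 729 CPM. On the GW3965 diet 1 was called higher (14.7% of all genes). Of 10 phagocyte oxidase and integrin genes, which neutrophils and macrophages share, 9, 10 and 2 were called higher at days 22, 43 and 70 on the standard diet, where 7.56%, 30.8% and 16.7% of all genes were, and 10, 10 and 4 on the GW3965 diet, where 13.7%, 26% and 14.7% were. Of 6 erythrocyte and platelet markers, 5 were called higher at day 43 on the standard diet (median log2 fold change 1.78, 30.8% of all genes called higher) and 3 on the GW3965 diet (26% of all genes), with 0 called at days 22 and 70. Their sum was 231 to 701 CPM at day 0 and 717 to 3910 CPM at day 43. The sum of 8 colon epithelium markers was 6000 to 11700 CPM at day 0 and 2480 to 5080 CPM at day 43. The part of these cells in the members' levels was not tested.

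Patterns most like those of the members were found by Pearson correlation of log2 CPM over the 26 samples, and are given as r over the 18 AOM–DSS samples, since the untreated samples form a cluster of their own. S100a8 was nearest to S100a9 (0.98), Cxcl5 (0.882), Stx11 (0.854), Il1r2 (0.831) and Serpina3i (0.866). Cxcr2 was nearest to Csf3r (0.921), Hdc (0.847), Fes (0.788), Il4ra (0.724) and Il1r2 (0.676). Lcn2 was nearest to Ifitm3 (0.891), Il1f9, Ifitm1, Mab21l3 and Cxcl5 (0.79 to 0.805 for these 4), and Cxcl5 to Cxcl3 (0.949), S100a9, S100a8, Ifitm3 and Mcub (0.835 to 0.896). Among the members the 3 tightest pairs were S100a8 with S100a9, Cxcl1 with Cxcl2 (0.93) and Csf3r with Cxcr2 (0.92), while S100a8 and Csf3r had r = 0.48. The samples share days, cages and libraries, and no test was made.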

How the data were processed

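Colon polyA RNA-seq of 26 samples was analysed in 8 groups of diet and day. Per the paper's methods and the submitters' processing notes, paired reads were assigned to GRCm38 transcripts by the authors using kallisto, who deposited estimated counts and TPM per transcript, with no column pooled over samples; the kallisto version and any filter are not given in the sources used here. Of 119414 transcripts, 116728 matched GENCODE genes, and their estimated counts were summed by gene and rounded. TPM, as deposited, served only to compare levels between genes.

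Genes were kept by edgeR's filterByExpr (17063 genes) and tested with edgeR 4.0.16 quasi-likelihood tests in R 4.3.3 (TMM, all 26 samples, Benjamini-Hochberg FDR under 0.05 over all genes tested), without a covariate against day 0 and with the centred percentage of ribosomal protein gene counts as an additive term between diets. SE is the size of the log2 fold change over the root of F. Alternatives included DESeq2 1.42.0, and the edgeR fit was tested on simulated data. Motifs were searched in RefSeq promoter windows, and figures were drawn with matplotlib. All 10 members were named, other lists by the up to 4 genes of smallest p, with Mertk, Il23a, Il17a, Cxcl3, Mpo and Elane. The members and lists were chosen with earlier results of these data known. Labels name no culture or litter, and samples of a group mostly shared a cage, so p-values measure only the spread between these samples.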

Additional observations from a re-analysis of the deposited data

Results flagged for a closer look

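Of 20 groups of 4 untreated samples examined (10 genes on 2 diets), 1 held a sample far from the others, about what chance gives at 1 in 20. Csf3 was at 0.0426 CPM in the standard diet sample of 43 days, replicate 1, and at 0 in the other 3 samples, which is a single count and lies under the 3 counts that a count of 0 allows. No diet effect on a member differed between days among 30 tests.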

How the results depend on the processing

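Numbers of members called stayed within 1.5 times the reported ones under RLE size factors, no filter on low counts, only the groups compared, DESeq2, leaving out the day 0 sample of conflicting labels and leaving out each library. The fits with only the groups compared had no ribosomal term. With the ribosomal percentage as a term the members called against day 0 at day 43 went to 0 on the standard diet and 5 on the GW3965 diet, with median log2 fold changes of 6.57 and 6.56 against 7.78 and 6.96 as reported. Leaving out each library in turn gave 7 to 9 calls at day 22 and 9 at days 43 and 70 on the standard diet, 7 to 8, 9 and 9 to 10 on the GW3965 diet, and 0 between diets. Calls over all genes moved more: between diets at day 70 they were 312 as reported, 1170 by DESeq2, 151 without the filter, 8 with the replicate block and 0 with only the groups compared, at day 43 on the GW3965 diet against day 0 they were 7729 and 160 with the ribosomal term, and at day 22 they were 3534 and 7071 with only the groups compared. Some values changed sign. As reported, those of Ly6g against day 0 ran from -0.62, on the standard diet at day 43, to 0.15. Between diets they were -1.85 for S100a8, -1.51 for Lcn2 and -0.75 for Cxcl1 at day 43 and 1.23 for Cxcl5 at day 70. For Ly6g, the standard diet value at day 43 was 0.03 with the ribosomal term, and the GW3965 diet value at day 22 was -0.05 without the sample of conflicting labels. With single libraries left out, Ly6g ran from -0.03 to 0.31 at day 22 on the standard diet and from -0.39 to 0.31 at day 22 and -0.04 to 0.42 at day 43 on the GW3965 diet. Between diets at day 43, S100a8 ran from -2.43 to 0.01, Lcn2 from -2.17 to 0.83 and Cxcl1 from -1.60 to 0.01, each highest without standard diet replicate 2. Cxcl5 at day 70 ran from -0.10, without GW3965 diet replicate 3, to 1.64. The cause was not tested.

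With the replicate block, no member was called between diets (0 at each day), and Lcn2 and Csf3 lost their call at day 22 on the standard diet (log2 fold changes of 2.34 and 5.35, edgeR FDR 0.0905 and 0.0694), the latter fit chosen after seeing the data. The replicate numbers do not pair the samples: over 13 same-numbered pairs the correlation of deviations from group means ran from -0.37 to 0.201. Genes at a few counts at day 0 have fold changes that rest on those counts.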
